A study of Mus musculus with 17 samples.

Results

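The mitochondrial carrier family Slc25 was followed through RNA-seq of mouse bone marrow macrophages and the preosteoclasts made from them. Members were all genes of the deposited tables whose symbol is Slc25a followed by a number, and 47 of 41388 genes met that rule, each of them annotated as protein coding. A processed pseudogene of Slc25a5 carries another kind of symbol and was not counted as a member. All cells came from 20-week-old male mice with floxed Bap1, the gene for a nuclear deubiquitinase. In Bap1flox littermates the floxed alleles were intact, since these mice lacked Cre, and in Bap1ΔLysM mice Cre was expressed from the Lyz2 (LysM) locus, which is active in myeloid cells and not in osteoclast lineage cells alone. The study's methods give Bap1ΔLysM mice as homozygous for floxed Bap1 and heterozygous for LysM-Cre. Bone marrow macrophages (BMMs) were grown in M-CSF, with 3 libraries of each genotype, and preosteoclasts (preOCs) were BMMs given RANKL at 100 ng/ml for 24 h, with 6 Bap1flox and 5 Bap1ΔLysM libraries. The labels number the libraries without naming the animal behind each of them, so p-values measure the spread between libraries.

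Most Slc25 proteins are carriers of the inner mitochondrial membrane. They exchange nucleotides, phosphate, carboxylates, amino acids, cofactors and iron between the cytosol and the matrix, and thereby link glycolysis, amino acid breakdown and the respiratory chain. The osteoclast is rich in mitochondria, and the number of mitochondria per cell is known to increase as macrophages become osteoclasts. These are levels of mRNA in bulk cultures, in which fewer cells of a type and less RNA per cell cannot be told apart.

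The library totals lay between 37967542 and 61369441 counts. BMM libraries and preOC replicates 1 to 3 were named in the deposit in one form and preOC replicates 4 to 6 in another, and these library sets differed in the share of counts from mitochondrially encoded genes, which lay between 0.45% and 0.989% in the first set and between 2.23% and 4.9% in the second. Bap1 itself was measured per gene, which does not show whether the floxed part was present. Its CPM (counts scaled to the library total) was 70.3 to 97.1 in Bap1flox preOCs and 55.9 to 87.7 in Bap1ΔLysM preOCs, and the difference did not pass the test (log2 fold change -0.22, adjusted p = 0.18, edgeR). Lyz2, where Cre is inserted, was at 0.146% to 0.436% of the Bap1flox mean in 6 Bap1ΔLysM libraries, but at 75.1% in Bap1ΔLysM preOC replicate 1 and at 42.8% in Bap1ΔLysM BMM replicate 1. With Cre heterozygous, as the methods state, an intact Lyz2 allele is foreseen in every Bap1ΔLysM library. Why Lyz2 differs between these libraries was not tested, and neither level is taken as the odd one. Because the libraries differ in this, members called between genotypes are also given without the library that retained Lyz2. The osteoclast markers (summed over 9 genes) were at 231 to 352 CPM in BMMs and 5893 to 17509 CPM in preOCs, and the macrophage markers Csf1r, Cd68 and Adgre1 were well detected in every group.

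Most of the family was transcribed in these cells. Between 34 and 41 members exceeded 1 CPM in a library, and the members together held 1927 to 2234 CPM in BMMs and 2429 to 3293 CPM in preOCs. Compared per length of transcript, as RPKM (CPM divided by gene length in kilobases), Slc25a5, the adenine nucleotide translocase of growing cells, was the highest member in all 4 groups. Its level was 110 ± 5.91 RPKM (SD, n = 3) in Bap1flox BMMs and 337 ± 42.8 RPKM (SD, n = 6) in Bap1flox preOCs. In Bap1flox preOCs it was followed by Slc25a39 (122 ± 16.1 RPKM), which is required for glutathione import, by the other major translocase Slc25a4 (115 ± 12.1 RPKM), by the phosphate carrier Slc25a3 (104 ± 10.3 RPKM) and by the oxoglutarate carrier Slc25a11 (81.5 ± 7.33 RPKM). The SDs of Slc25a39, Slc25a4 and Slc25a3 overlap, and the order of those 3 is not settled by these libraries. In Bap1flox BMMs the citrate carrier Slc25a1 (53.5 ± 2.6 RPKM) and Slc25a45 (44.4 ± 1.15 RPKM), a carrier whose substrate is not settled, stood just behind this group.

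**Figure D1:**
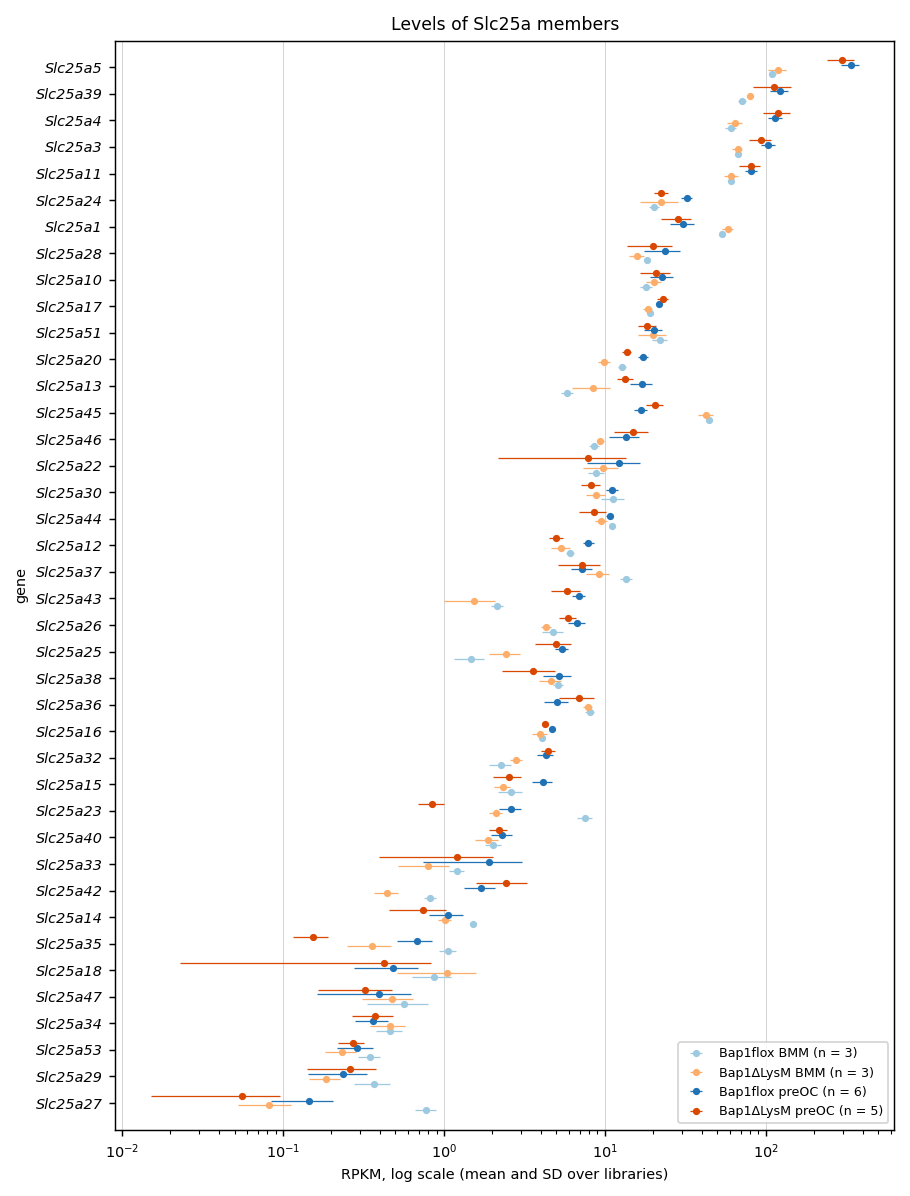
Mean RPKM (log axis) of Slc25a members that reached 0.3 RPKM in a group (1 is not drawn), with the SD over libraries, in BMMs and preOCs of both genotypes, sorted by the level in Bap1flox preOCs. Slc25a5 stands at the top in every group, and Slc25a23, Slc25a35 and Slc25a27 show the widest gaps between genotypes.

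At the other end, Slc25a21, the oxodicarboxylate carrier, had 0 counts in all 17 libraries, which allows at most 0.0489 to 0.079 CPM (3 counts of each library's total). Slc25a2, Slc25a31, Slc25a41, Slc25a48 and Slc25a54 stayed at or below 0.79 CPM in every library and did not pass the filter on low counts in any comparison. Slc25a31 is the translocase of male germ cells, and Slc25a41 is a shortened relative of the ATP-Mg carriers. Slc25a48 had 0 counts in 5 of 17 libraries, all of them BMMs, and 0.0425 to 0.79 CPM in preOCs. Slc25a18, a glutamate carrier, was at 0 to 2.18 CPM over all libraries, and it passed the filter in BMMs and in the RANKL comparisons but not between genotypes in preOCs. In Bap1flox cells its CPM was 0.996, 1.57 and 1.01 in BMMs and 0.717, 1.07 and 0.894 in preOC replicates 1 to 3. Its log2 fold change with RANKL was -0.61 and did not pass the test (adjusted p = 0.099). Slc25a27, Slc25a29 and Slc25a47 passed the filter on low counts with the BMMs and failed it in the preOC comparison. That left 37 members tested between genotypes in preOCs and 41 in BMMs.

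The first question was how the family responds to RANKL in control cells. Replicates 1 to 3 hold both states, so BMMs and preOCs were compared within them. With RANKL, 28 of 41 members changed in Bap1flox cells, 18 higher and 10 lower (adjusted p under 0.05, edgeR). That is 68.3% of the members tested, where 64.6% of all 13415 genes tested changed, 31.7% higher and 32.9% lower. The share is close to that of genes at large. The median log2 fold change was 0.11 over the members and -0.05 over all genes. Markers of other cells moved in the same comparison, and their part in it was not tested. The B cell gene Ighm was lower (log2 fold change -3.64), with a list sum of 90 to 111 CPM in BMMs and 6.32 to 14.7 CPM in preOCs, and of 5 stromal markers Dcn was higher (1.28).

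All 8 tested carriers of nucleotides, phosphate and ATP-Mg changed, 6 of them higher. This count and those of the other groups of carriers below stand against 64.6% of all genes called in this comparison, and nothing particular to a group is read from them. Slc25a5 was at 170, 189 and 184 CPM in BMMs and at 566, 624 and 604 CPM in preOCs, a rise of 1.53 ± 0.06 (log2 fold change ± standard error; adjusted p = 6e-06). No BMM library came near a preOC library. The related Slc25a4 was at 131, 154 and 144 CPM in BMMs and 247, 287 and 275 CPM in preOCs, and it rose by 0.72 ± 0.08. Since the rise of Slc25a5 was larger, the RPKM ratio of Slc25a5 to Slc25a4 was 1.75 to 1.85 in Bap1flox BMMs and 3.11 to 3.27 in the preOCs of the same replicates. Slc25a3, which brings in the phosphate for ATP synthesis, went from 361, 386 and 379 CPM to 567, 623 and 605 CPM, a rise of 0.48 ± 0.06. Reads that Slc25a5 may share with pseudogene copies were not measured here, and its level is uncertain to that extent.

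The ATP-Mg carriers moved in opposite directions. These proteins exchange ATP-Mg for phosphate, carry calcium-binding domains and thereby set the adenine nucleotide content of the matrix. Slc25a25 was at 5.15, 7.28 and 7.94 CPM in BMMs and at 27.1, 25.6 and 28 CPM in preOCs, and it rose by 1.80 ± 0.16, the largest rise among the members (adjusted p = 9.9e-05). Slc25a23 went the other way, from 44.7, 36.4 and 38.9 CPM to 11.9, 12.5 and 11.3 CPM (log2 fold change -1.94 ± 0.10, adjusted p = 1.1e-05). The third, Slc25a24, rose by 0.40 ± 0.09. The RPKM ratio of Slc25a25 to Slc25a23 was thus 0.132 to 0.233 in Bap1flox BMMs and 2.35 to 2.82 in the preOCs of these replicates.

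Slc25a23 lies on the minus strand at chr17:57043711-57059863 (GRCm38) and Slc25a25 on the minus strand at chr2:32414487-32451445. Their RefSeq promoter windows (GRCm38.p6, 250 bases before to 50 after an annotated start) are shown because this pair gave the clearest opposite response. Capitals mark each match on either strand to the GC box GGGCGG or to the cAMP response element TGACGTCA. For Slc25a23 the window is chr17:57059814-57060113, which ends its upstream part at the 5′ end of the gene. A close second RefSeq start of Slc25a23 and another internal start of Slc25a25 are not shown. For Slc25a25 the first window, chr2:32451421-32451720, lies at the 5′ end of the gene, and the second, chr2:32424017-32424316, lies at an internal start.
Slc25a23: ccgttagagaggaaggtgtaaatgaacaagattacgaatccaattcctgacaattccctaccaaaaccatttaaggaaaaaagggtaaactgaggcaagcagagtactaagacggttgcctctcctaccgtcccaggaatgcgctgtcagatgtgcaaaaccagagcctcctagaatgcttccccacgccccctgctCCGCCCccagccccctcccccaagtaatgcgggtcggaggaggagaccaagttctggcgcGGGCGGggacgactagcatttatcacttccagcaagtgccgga
Slc25a25, 5′ start: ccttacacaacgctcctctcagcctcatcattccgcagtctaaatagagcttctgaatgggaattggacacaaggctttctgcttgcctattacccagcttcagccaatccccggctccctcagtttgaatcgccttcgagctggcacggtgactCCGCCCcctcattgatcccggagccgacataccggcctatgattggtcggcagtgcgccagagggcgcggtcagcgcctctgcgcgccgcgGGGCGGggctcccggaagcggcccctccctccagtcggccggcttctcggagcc
Slc25a25, internal start: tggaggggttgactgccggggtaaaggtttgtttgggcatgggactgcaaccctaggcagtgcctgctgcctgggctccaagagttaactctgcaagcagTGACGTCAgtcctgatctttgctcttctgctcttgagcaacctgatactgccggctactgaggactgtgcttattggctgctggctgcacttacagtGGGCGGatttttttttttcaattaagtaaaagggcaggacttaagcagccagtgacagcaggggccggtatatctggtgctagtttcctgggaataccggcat

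The windows of Slc25a23 and of the 5′ start of Slc25a25 hold 2 GC boxes each, while the internal window of Slc25a25 holds a cAMP response element and 1 GC box. The same search was run on 46 windows of 36 members and on all 32851 windows outside chromosome 18. The letters TGACGTCA occur in 1.79% of all windows and in 2 of the 46, those of Slc25a25 and of Slc25a36. A GC box occurs in 35.7% of all windows and in 38 of the 46. The letters TGANTCA (N is any base), a loose form of the AP-1 site, occur in 7.81% of all windows and in 2 of the 46. The match is TGAGTCA for Slc25a13 and TGATTCA for Slc25a11. The E-box letters CACGTG occur in 7.15% of all windows and in 8 of the 46. These are matches of letters and not bound sites, and counts per gene do not show which start was used. Windows of a member can overlap, as for Slc25a23 and Slc25a14, so the same site can be counted in several windows. Whether members differ from other genes in these letters was not tested.

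The pair of pyrimidine nucleotide carriers also split. Slc25a33 was at 2.2, 2.08 and 2.54 CPM in BMMs and 6.93, 4.29 and 4.99 CPM in preOCs (log2 fold change 1.06 ± 0.23). Slc25a36 was at 83.4, 73.4 and 75.9 CPM in BMMs and 38.4, 43.7 and 43.2 CPM in preOCs (log2 fold change -1.09 ± 0.08). Slc25a33 shares 14.9% of its exonic bases with another annotated gene. Slc25a36 remained the more abundant of the 2 per length in every library, with RPKM ratios of Slc25a33 to Slc25a36 of 0.134 to 0.17 in Bap1flox BMMs and 0.499 to 0.917 in preOC replicates 1 to 3.

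Another pair of this kind was the mitoferrins, which import iron for heme and iron-sulfur clusters. Slc25a37 (mitoferrin 1) was at 88.5, 73.7 and 83.5 CPM in BMMs and 51.2, 48.1 and 46.4 CPM in preOCs, a log2 fold change of -0.94 ± 0.09. Slc25a28 (mitoferrin 2) was at 27.4, 28.7 and 27.4 CPM in BMMs and 47.4, 42.5 and 40.8 CPM in preOCs, a rise of 0.46 ± 0.08. The erythroid markers, fixed as a check because mitoferrin 1 is a red cell protein, summed to at most 0.679 CPM in any library, with Hbb-bt at 0 in all 17. Of the glutathione carriers, Slc25a39 rose from 185, 208 and 197 CPM to 345, 382 and 371 CPM (log2 fold change 0.70 ± 0.06), while Slc25a40 was at 6.2, 4.98 and 5.71 CPM in BMMs and 6, 5.9 and 5.2 CPM in preOCs (log2 fold change -0.18, adjusted p = 0.32).

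Among the amino acid carriers 4 of 8 changed, 3 higher and 1 lower. The aspartate-glutamate carriers belong to the malate-aspartate shuttle. Slc25a13 (citrin) was at 17.3, 20 and 17.3 CPM in BMMs and 56.1, 48.1 and 45.6 CPM in preOCs, a rise of 1.27 ± 0.11. Its partner Slc25a12 (aralar) was at 45, 42.3 and 46.9 CPM in BMMs and 58.9, 54.2 and 52.5 CPM in preOCs, and its log2 fold change of 0.11 did not pass the test (adjusted p = 0.25). The RPKM ratio of Slc25a13 to Slc25a12 was 0.868 to 1.11 in BMMs and 2.04 to 2.24 in these preOCs. The glutamate carrier Slc25a22 rose by 0.68 ± 0.11, from 31.6, 39.5 and 36.4 CPM to 72, 63.1 and 60.5 CPM, and the ornithine carrier Slc25a15 rose by 0.51 ± 0.15. Slc25a44, the carrier of branched-chain amino acids, was at 38.2, 41.2 and 40 CPM in BMMs and 38.4, 40.7 and 41 CPM in preOCs. The CPM ranges overlapped, and its log2 fold change of -0.18 ± 0.06 after TMM scaling (adjusted p = 0.033) no longer passed once replicates were blocked (adjusted p = 0.072).

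All 3 tested carboxylate carriers changed. The citrate carrier Slc25a1, which exports citrate for lipid synthesis, went from 110, 121 and 119 CPM to 80.7, 75.8 and 74.2 CPM (log2 fold change -0.79 ± 0.07). The dicarboxylate carrier Slc25a10 went from 55.8, 65.9 and 65.7 CPM to 88.4, 88.3 and 92.2 CPM (log2 fold change 0.33 ± 0.08), and Slc25a11, also of the malate-aspartate shuttle, went from 131, 127 and 128 CPM to 176, 187 and 180 CPM (log2 fold change 0.30 ± 0.05). The carnitine-acylcarnitine carrier Slc25a20, which brings fatty acyl groups in for oxidation, was at 24.2, 22.5 and 21.8 CPM in BMMs and 28.2, 28.2 and 29.9 CPM in preOCs (log2 fold change 0.14, adjusted p = 0.14).

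Of the cofactor carriers 4 rose, 1 fell and 2 did not pass. Slc25a42, the coenzyme A carrier, had the largest rise (0.95 ± 0.19), from 4.59, 4.81 and 5.44 CPM to 8, 12.2 and 12.6 CPM. The folate and FAD carrier Slc25a32 rose by 0.60 and the S-adenosylmethionine carrier Slc25a26 by 0.42. Slc25a51, the NAD carrier, had a log2 fold change of -0.44 with overlapping groups, at 107 to 132 CPM in BMMs and 82.4 to 113 CPM in preOCs. Its call was lost without Bap1flox BMM replicate 2 or 3 (adjusted p up to 0.095), that of Slc25a26 without preOC replicate 2 or 3 (up to 0.066) and that of Slc25a15 without preOC replicate 1 or 2 (up to 0.062). The 2 relatives of the uncoupling proteins that changed were both lower. Slc25a27 was at 2.45, 1.99 and 1.83 CPM in BMMs and 0.63, 0.388 and 0.457 CPM in preOCs (log2 fold change -2.28 ± 0.28). It passed the filter through the BMMs alone, where it is high, so that its call is a description. The other, Slc25a14, had a log2 fold change of -0.52, which did not pass with the replicate block (adjusted p = 0.061).

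Among the members without a settled substrate, Slc25a43 was at 3.49, 4.13 and 3.78 CPM in BMMs and 12.1, 11.7 and 12.7 CPM in preOCs, a rise of 1.48 ± 0.12. Slc25a45 was at 121, 115 and 117 CPM in BMMs and 48.6, 48.3 and 45.6 CPM in preOCs (2.83-fold lower, adjusted p = 5.8e-06). Slc25a35 was at 3.58, 4.42 and 3.71 CPM in BMMs and 2.15, 2.64 and 2.16 CPM in preOCs (log2 fold change -0.94 ± 0.17). The ranges of BMMs and preOCs did not overlap for any of these 3 genes.

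**Figure D2:**
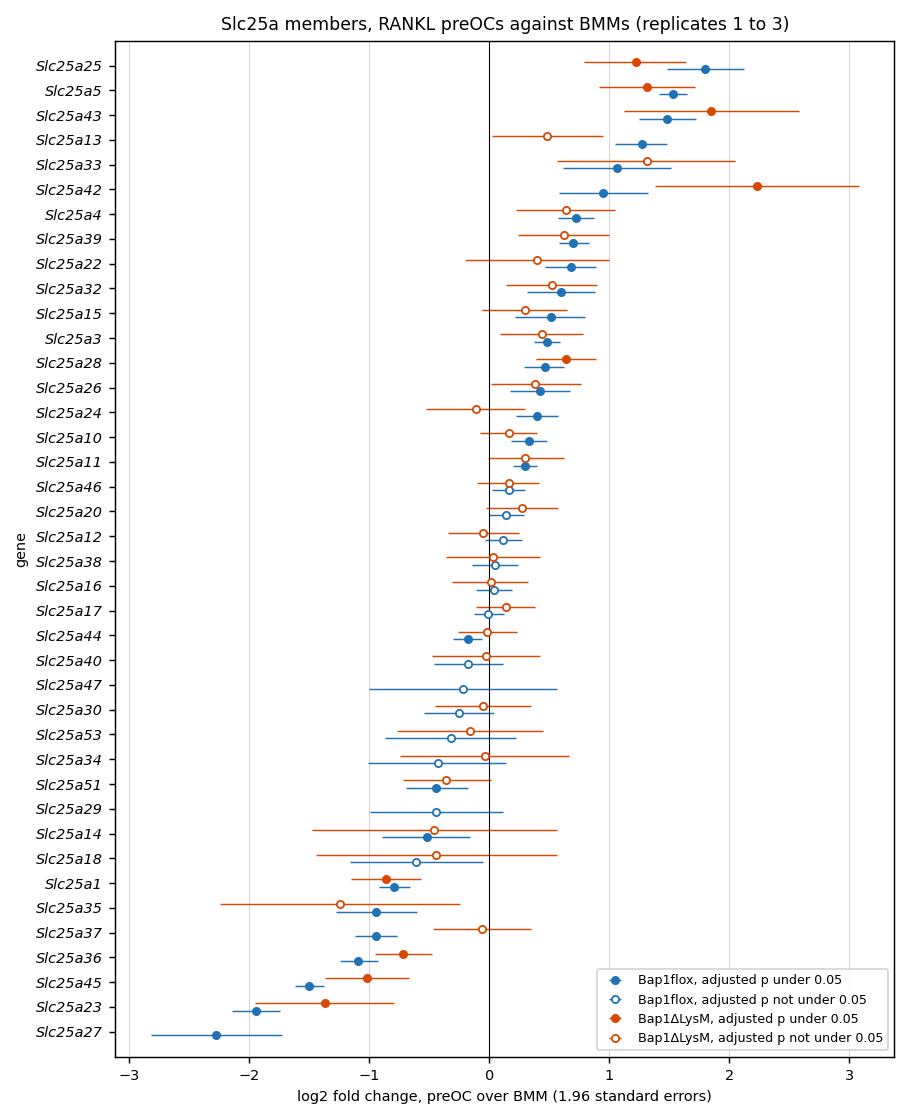
Log2 fold change of tested members (1 is not drawn) between preOCs and BMMs within replicates 1 to 3, with its 95% interval, in Bap1flox cells (blue, 3 against 3 libraries) and Bap1ΔLysM cells (orange, 2 against 3). Filled points passed an adjusted p of 0.05. Slc25a25 (1.80), Slc25a5 (1.53) and Slc25a43 (1.48) lead the rises in Bap1flox cells and Slc25a23 (-1.94) the falls among members above the filter in both states, with Slc25a27 (-2.28) above it in BMMs only.

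Carriers of the inner membrane reach it through the TIM22 import pathway, and the components of that pathway were examined beside the family. In Bap1flox cells 10 of 13 import genes rose with RANKL and none fell, that is 76.9% called, where 64.6% of all genes were called and 31.7% were higher. The small TIM chaperone genes Timm8a1 (2.84), Timm10 (1.83) and Timm9 (1.49) and the receptor gene Tomm70a (1.46) had the largest log2 fold changes. The import channel gene Timm22 rose by 0.64. The list median was 0.74, against -0.05 over all genes. Of 22 other mitochondrial transporters and channels, 12 rose and 5 fell (77.3% called), with a median of 0.41. Mpc1 and Mpc2, which form the pyruvate carrier together, had log2 fold changes of -0.79 and 0.94. The family members with other symbols were lower for Ucp2 (-0.50) and Mtch1 (-0.23) and higher for Mtch2 (0.42). None of 13 mitochondrially encoded genes passed the test.

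In Bap1ΔLysM cells the RANKL comparison had 2 preOC libraries, of which replicate 1 retained Lyz2. Here 9 of 38 members changed, 5 higher and 4 lower, where 19.6% of all genes tested changed, 11.4% higher and 8.2% lower. The median log2 fold change was 0.15 over the members and 0.01 over all genes. Here too Ighm was lower (log2 fold change -3.13, adjusted p = 0.028), with a B and plasma cell list sum of 33.6 to 107 CPM in BMMs and 10.4 to 21.9 CPM in preOC replicates 1 and 2. None of 8 neutrophil markers passed, though 4 had an unadjusted p under 0.05, all lower, and their list sum was 215 to 297 CPM in BMMs and 166 to 188 CPM in these preOC libraries. The part of these cells was not tested. Slc25a42 had the largest fitted rise with all 5 libraries, from 2.13, 2.87 and 2.98 CPM in BMMs to 6.87 and 20.4 CPM in preOCs (log2 fold change 2.23 ± 0.43, adjusted p = 0.024). The 2 preOC values of Slc25a42 lie far apart, and the log2 fold change was 2.79 without preOC replicate 1 and 1.32 (adjusted p = 0.073), less than that of Slc25a43 (1.49), without replicate 2. Slc25a43 rose from 3.09, 3.47 and 1.66 CPM to 7.97 and 13.4 CPM (1.85 ± 0.37), Slc25a5 from 180, 225 and 185 CPM to 403 and 648 CPM (1.31 ± 0.20), Slc25a25 from 11.2, 13.7 and 8.88 CPM to 24.1 and 32.3 CPM (1.22 ± 0.22) and Slc25a28 from 21.5, 26.8 and 24 CPM to 38.4 and 41.9 CPM (0.64 ± 0.13).

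On the falling side Slc25a23 went from 10, 12 and 11.3 CPM to 5.69 and 3.4 CPM (log2 fold change -1.37 ± 0.30), and Slc25a45 from 102, 109 and 125 CPM to 65.4 and 52.5 CPM (-1.02 ± 0.18). Slc25a1 went from 115, 129 and 135 CPM to 78.9 and 68.9 CPM (-0.86 ± 0.15) and Slc25a36 from 69.3, 76.1 and 79.8 CPM to 48.7 and 49 CPM (-0.72 ± 0.12). In each of these 4 genes every preOC library was below every BMM library. Leaving out a preOC library leaves 1 in that arm, which is then assumed to vary like the BMMs, and the counts of those fits do not bear on the 9 calls. Without Bap1ΔLysM preOC replicate 1, 14 members and 26.2% of all genes passed, and without both libraries numbered 1, 14 members and 32.6%. Without Bap1ΔLysM preOC replicate 2, 1 member (Slc25a5) and 4.51% of all genes passed. Without Bap1ΔLysM BMM replicate 1, 2 or 3, the numbers were 4, 0 and 0 members, with 8.99%, 0.49% and 1.28% of all genes. In the last 2 of these fits 12 and 11 members had an unadjusted p under 0.05, as had 30.6% and 27% of all genes (edgeR). Both preOC libraries stay in the fits without a BMM library. None of the 9 calls held without BMM replicate 2 or 3, and 4 held without BMM replicate 1.

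The difference between the 2 responses was tested directly as an interaction of genotype and RANKL over replicates 1 to 3. No member passed, and 0% of all 13637 genes did (edgeR), also without both Bap1ΔLysM libraries numbered 1. This does not show that the responses were alike. At an unadjusted p under 0.05 there were 7 of 41 members and 12.6% of all genes. DESeq2 called 117 genes and limma with quality weights 0, with no member in either. Slc25a27 had the largest difference (2.15, adjusted p = 0.33) at counts near the filter. The smallest unadjusted p was that of Slc25a37, whose log2 fold change with RANKL was -0.94 in Bap1flox cells and -0.06 in Bap1ΔLysM cells (difference 0.87, 95% interval 0.43 to 1.32, adjusted p = 0.33). It passed only without Bap1ΔLysM preOC replicate 2 (adjusted p = 0.041), a fit whose Bap1ΔLysM preOC arm is the single library that retained Lyz2. For Slc25a13 the log2 fold changes were 1.27 and 0.48 (difference -0.79, interval -1.32 to -0.27), and for Slc25a42 0.95 and 2.23 (difference 1.26, interval 0.32 to 2.20), with adjusted p of 0.34 and 0.35. For Slc25a5 the interval of the difference ran from -0.62 to 0.15. The Bap1flox and Bap1ΔLysM responses share no libraries.

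**Figure D3:**
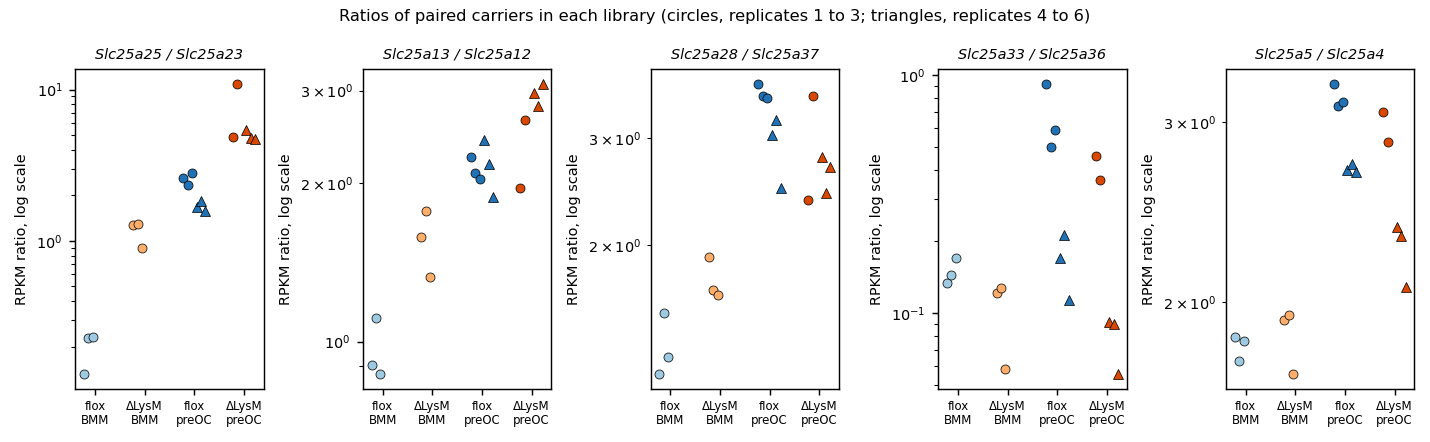
RPKM ratios of 5 pairs of related carriers in each library (log axis), with circles for replicates 1 to 3 and triangles for replicates 4 to 6. The ratio of Slc25a25 to Slc25a23 is lowest in Bap1flox BMMs (0.132 to 0.233) and highest in Bap1ΔLysM preOCs (4.71 to 10.9), and its 4 groups do not overlap.

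The second question was what Bap1 deletion changed in BMMs before RANKL. Of 41 members tested, 4 differed and all of them were lower in Bap1ΔLysM BMMs (9.76% of the members). Of all 13028 genes tested, 5.32% differed, 1.31% higher and 4.01% lower. The median log2 fold change was -0.10 over the members and -0.01 over all genes. With a block on replicate number 5 of 41 members and 16.2% of all genes passed. DESeq2 called 6 members and 15.9% of all genes, and limma with quality weights 5 and 13.6%. Whether the family's share exceeds that of all genes thus depends on the fit. Slc25a23 was at 44.7, 36.4 and 38.9 CPM in Bap1flox BMMs and at 10, 12 and 11.3 CPM in Bap1ΔLysM BMMs (log2 fold change -1.83 ± 0.11, adjusted p = 0.0032), that is 3.56-fold lower. Bap1ΔLysM BMM replicate 1, which retained Lyz2, had the lowest Slc25a23 of the 6, and without it the log2 fold change was -1.79. This member alone passed under every alternative run for BMMs.

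Slc25a27 was at 2.45, 1.99 and 1.83 CPM in Bap1flox BMMs and at 0.313, 0.177 and 0.172 CPM in Bap1ΔLysM BMMs (log2 fold change -3.22 ± 0.35, adjusted p = 0.012). The Bap1ΔLysM values rest on 14, 8 and 9 counts, and the gene passed the filter through the Bap1flox libraries alone, so that its call is a description. Slc25a27 encodes a relative of the uncoupling proteins that is known from brain. Slc25a35 was at 3.58, 4.42 and 3.71 CPM in Bap1flox and 1.7, 0.906 and 1.34 CPM in Bap1ΔLysM BMMs (log2 fold change -1.54 ± 0.29, adjusted p = 0.036). Slc25a42 was at 4.59, 4.81 and 5.44 CPM in Bap1flox and 2.13, 2.87 and 2.98 CPM in Bap1ΔLysM BMMs (log2 fold change -0.88 ± 0.18, adjusted p = 0.045). The genotypes did not overlap in any of these genes, but Slc25a42 did not pass when any 1 of the 6 libraries was left out, and Slc25a35 passed in 1 and Slc25a27 in 3 of these 6 fits. Without Bap1ΔLysM BMM replicate 1 the log2 fold changes were -3.58 for Slc25a27, -1.80 for Slc25a35 and -0.77 for Slc25a42.

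Slc25a37 lay at the threshold. It was at 88.5, 73.7 and 83.5 CPM in Bap1flox and 44.8, 62.9 and 57.4 CPM in Bap1ΔLysM BMMs, and its log2 fold change of -0.56 ± 0.12 had an adjusted p of 0.05 unblocked and 0.039 in the fit blocked by replicate. Slc25a25 had a higher level in Bap1ΔLysM BMMs by 0.75 ± 0.22 on the log2 scale, which did not pass (adjusted p = 0.092). Bap1ΔLysM BMMs thus had an RPKM ratio of Slc25a25 to Slc25a23 of 0.895 to 1.3, against 0.132 to 0.233 in Bap1flox BMMs. Slc25a13 had a log2 fold change of 0.55 and Slc25a20 of -0.35, and neither passed (adjusted p = 0.13 and 0.11). For Slc25a3, Slc25a4, Slc25a5 and Slc25a11 the intervals of the log2 fold change lay between -0.14 and 0.31. Of the 13 import genes 1 was higher (Agk, 0.53), and none of the 22 other transporters and channels passed.

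The third question was the genotype difference in preOCs. Of 37 members tested, 6 differed, 5 lower and 1 higher in Bap1ΔLysM preOCs (16.2% of the members). Of all 12929 genes tested, 15.8% differed, 7.12% higher and 8.68% lower, so the share in the family was near that of all genes. The median log2 fold change was -0.07 over the members and -0.01 over all genes.

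Slc25a35 had the largest fitted difference, but it passed the filter through the Bap1flox libraries alone, and its call is a description. With more than 1 CPM required in every library it was not tested. The gene lies at chr11:68968131-68974365 on the plus strand. It was at 1.74 to 3.42 CPM in Bap1flox preOCs (median 2.4, n = 6) and at 0.772, 0.395, 0.587, 0.536 and 0.528 CPM in Bap1ΔLysM preOCs (replicates 1, 2, 4, 5 and 6). All 5 Bap1ΔLysM values lay below the lowest Bap1flox value, and the log2 fold change was -2.06 ± 0.26 (adjusted p = 0.00068), that is 4.18-fold lower. The gene shares 31.3% of its exonic bases with Rangrf on the other strand. Rangrf was listed at 0 to 0.0923 CPM in the 17 libraries, and reads in the shared bases are ambiguous where strand is not used in counting, so Slc25a35 is uncertain in level.

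Slc25a23 was at 11.3 to 16.2 CPM in Bap1flox preOCs (median 13.7) and at 5.69, 3.4, 4.53, 4.63 and 4.2 CPM in Bap1ΔLysM preOCs. The groups did not overlap, and the log2 fold change was -1.53 ± 0.18 (adjusted p = 0.00054), that is 2.89-fold lower. Taken apart, the first library set gave -1.27 and the second -1.75. The sister gene Slc25a24 was at 99.1 to 120 CPM in Bap1flox preOCs (median 113) and at 80.4, 71.1, 67.6, 84.7 and 82 CPM in Bap1ΔLysM preOCs, with a log2 fold change of -0.44 ± 0.11 (adjusted p = 0.016). This call was lost without Bap1flox or Bap1ΔLysM preOC replicate 4 (adjusted p up to 0.052). For the third of these ATP-Mg carriers, Slc25a25, the log2 fold change was -0.05 (interval -0.31 to 0.20). The RPKM ratio of Slc25a25 to Slc25a23 was 1.57 to 2.82 in Bap1flox and 4.71 to 10.9 in Bap1ΔLysM preOCs.

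Slc25a12, the aralar carrier, was at 52.5 to 64.4 CPM in Bap1flox preOCs (median 57.6) and at 40.8, 40.5, 33.1, 35.3 and 34.2 CPM in Bap1ΔLysM preOCs. No value of one genotype reached the other, and the log2 fold change was -0.58 ± 0.09 (adjusted p = 0.0022). The first library set alone gave -0.34 and the second -0.77, and the difference between them did not pass (adjusted p = 0.4). Slc25a13, the other aspartate-glutamate carrier, was at 45.1 to 66.2 CPM in Bap1flox preOCs (median 52.1), against 34, 45.5, 41.8, 42.2 and 44.9 CPM in Bap1ΔLysM preOCs, and its log2 fold change of -0.27 did not pass (adjusted p = 0.15), though it did (-0.29, adjusted p = 0.037) in the fit that also has a term for library set.

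Slc25a15, which carries ornithine for the urea cycle and for polyamine and proline metabolism, was at 10.5 to 16.3 CPM in Bap1flox preOCs (median 14.8) and at 10.1, 11, 6.96, 8.04 and 7.62 CPM in Bap1ΔLysM preOCs. One Bap1ΔLysM library lay within the Bap1flox range, and the log2 fold change was -0.63 ± 0.14 (adjusted p = 0.012). Slc25a45 was the only member that was higher. It was at 38.3 to 48.6 CPM in Bap1flox preOCs (median 45.2) and at 65.4, 52.5, 53.3, 53.9 and 47.4 CPM in Bap1ΔLysM preOCs, a log2 fold change of 0.38 ± 0.10 (adjusted p = 0.025). Its highest value came from replicate 1, which retained Lyz2, and without it the log2 fold change was 0.30 (adjusted p = 0.029). The call was lost without Bap1flox preOC replicate 5 or Bap1ΔLysM preOC replicate 4 or 5 (adjusted p up to 0.065) and with no filter on low counts (adjusted p = 0.054). Without Bap1ΔLysM preOC replicate 1 the other 5 members also passed, with log2 fold changes of -2.21 for Slc25a35, -1.64 for Slc25a23, -0.70 for Slc25a15, -0.63 for Slc25a12 and -0.47 for Slc25a24.

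**Figure D4:**
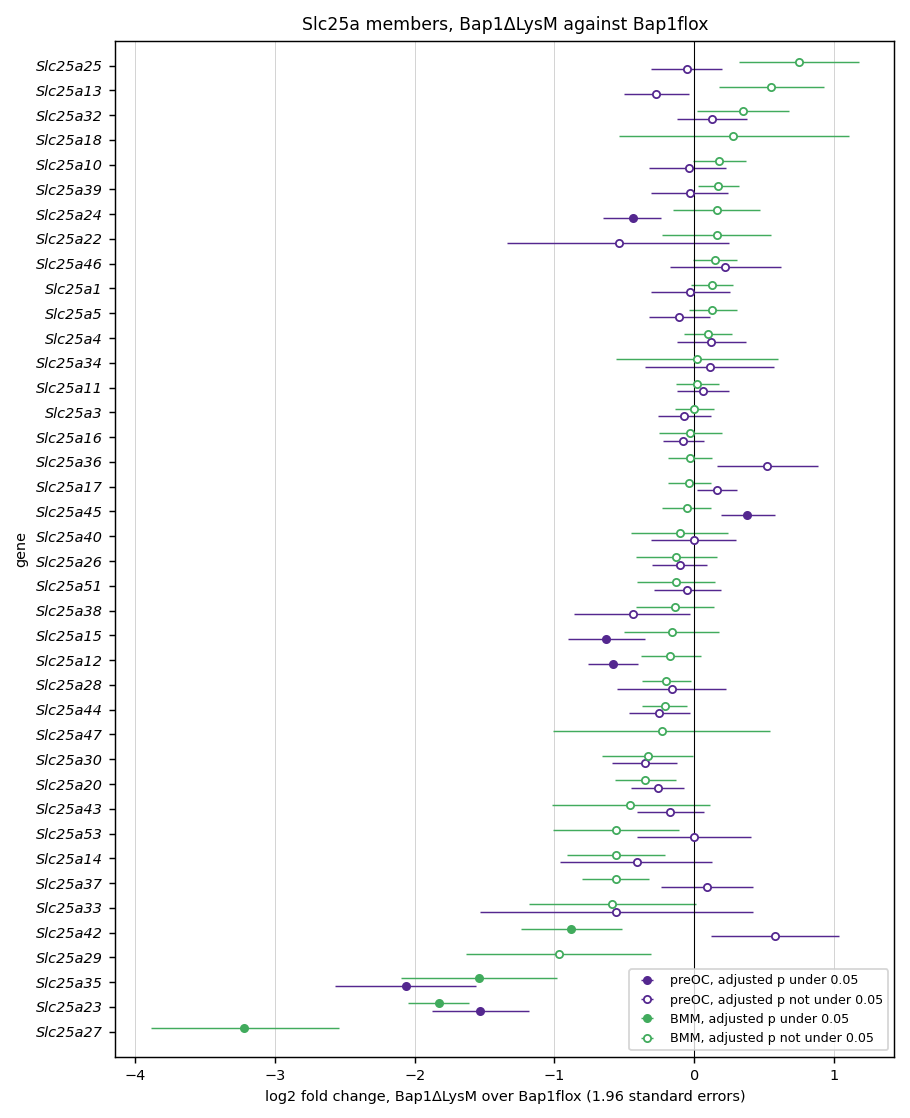
Log2 fold change of tested members (1 is not drawn) between Bap1ΔLysM and Bap1flox cells, with its 95% interval, in preOCs (purple, 5 against 6 libraries) and BMMs (green, 3 against 3). Filled points passed an adjusted p of 0.05. Slc25a23 (-1.53 and -1.83) and Slc25a35 (-2.06 and -1.54) are the 2 members that passed in both, the latter above the filter in preOCs through Bap1flox alone.

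Slc25a23 and Slc25a35 passed in BMMs and in preOCs. The BMM and preOC libraries are different libraries, though the labels do not say whether mice were shared. The members called in 1 of these states alone were not shown to differ between the states, since no interaction passed.

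The carriers of metabolites that the study deals with gave further values in preOCs. Slc25a39 was at 256 to 382 CPM in Bap1flox preOCs (median 343), against 276, 450, 306, 301 and 230 CPM in Bap1ΔLysM preOCs, a log2 fold change of -0.03 (interval -0.31 to 0.24). Slc25a40, the second glutathione carrier, was at 5.2 to 7.93 CPM in Bap1flox preOCs (median 6.27), against 5.56, 5.32, 6.05, 6.16 and 7.32 CPM in Bap1ΔLysM preOCs, a log2 fold change of 0.00 (interval -0.31 to 0.30). The groups overlapped for both. Slc25a44, the branched-chain amino acid carrier, was at 35.9 to 41 CPM in Bap1flox preOCs (median 37.7), against 35.3, 36.5, 30.7, 27.3 and 22.6 CPM in Bap1ΔLysM preOCs. Its log2 fold change of -0.25 ± 0.11 did not pass (adjusted p = 0.15), with -0.06 in the first library set and -0.39 in the second (adjusted p = 0.029).

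Slc25a22 was at 32.6 to 72 CPM in Bap1flox preOCs (median 47.5), against 67.1, 42.9, 18.2, 17.1 and 13.6 CPM in Bap1ΔLysM preOCs. Both genotypes had higher values in replicates 1 to 3 than in 4 to 6, and the log2 fold change of -0.54 over both sets ± 0.41 did not pass (adjusted p = 0.4). Within replicates 4 to 6 the Bap1flox libraries were at 32.9, 34.5 and 32.6 CPM, and the log2 fold change was -0.97 ± 0.12 (adjusted p = 0.00052). Within replicates 1 to 3 it was -0.13, and the difference between the sets was -0.83 (interval -1.36 to -0.31, adjusted p = 0.46). Slc25a20 was at 28.2 to 33.5 CPM in Bap1flox preOCs (median 31.1), against 22, 23.9, 25.4, 26 and 25 CPM in Bap1ΔLysM preOCs. Its groups did not overlap, yet its log2 fold change of -0.26 ± 0.10 had an adjusted p of 0.096. Slc25a20 passed in 5 of 22 alternatives. These were the replicate block, the library set as a term, upper-quartile factors, all 17 libraries in a single fit and replicates 4 to 6 alone.

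None of the most abundant carriers passed the genotype test in preOCs. Slc25a5 was at 425 to 624 CPM in Bap1flox preOCs (median 570), against 403, 648, 479, 464 and 451 CPM in Bap1ΔLysM preOCs (log2 fold change -0.11, interval -0.32 to 0.11). Slc25a4 was at 227 to 304 CPM in Bap1flox preOCs (median 279), against 187, 323, 289, 286 and 312 CPM in Bap1ΔLysM preOCs (0.12, interval -0.12 to 0.37). Slc25a3 was at 468 to 623 CPM in Bap1flox preOCs (median 591), against 435, 646, 537, 513 and 464 CPM in Bap1ΔLysM preOCs (-0.07, interval -0.26 to 0.12). In all 3 the Bap1ΔLysM range covered the Bap1flox range.

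None of the 3 tested carboxylate carriers passed either. Slc25a1 was at 54.2 to 80.7 CPM in Bap1flox preOCs (median 66.9), against 78.9, 68.9, 61.3, 55.2 and 45.1 CPM in Bap1ΔLysM preOCs (interval of the log2 fold change -0.31 to 0.26). Slc25a10 was at 59.5 to 92.2 CPM (median 82.4) and at 77.3, 89.7, 78.7, 66.5 and 49.5 CPM (interval -0.32 to 0.23). Slc25a11 was at 143 to 187 CPM (median 178) and at 141, 203, 185, 177 and 148 CPM (interval -0.12 to 0.25). Slc25a18 was below the filter here, at 0.374 to 1.07 CPM (median 0.613) in Bap1flox preOCs, against 0.907, 1.37, 0.342, 0.286 and 0 CPM in Bap1ΔLysM preOCs.

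**Figure D5:**
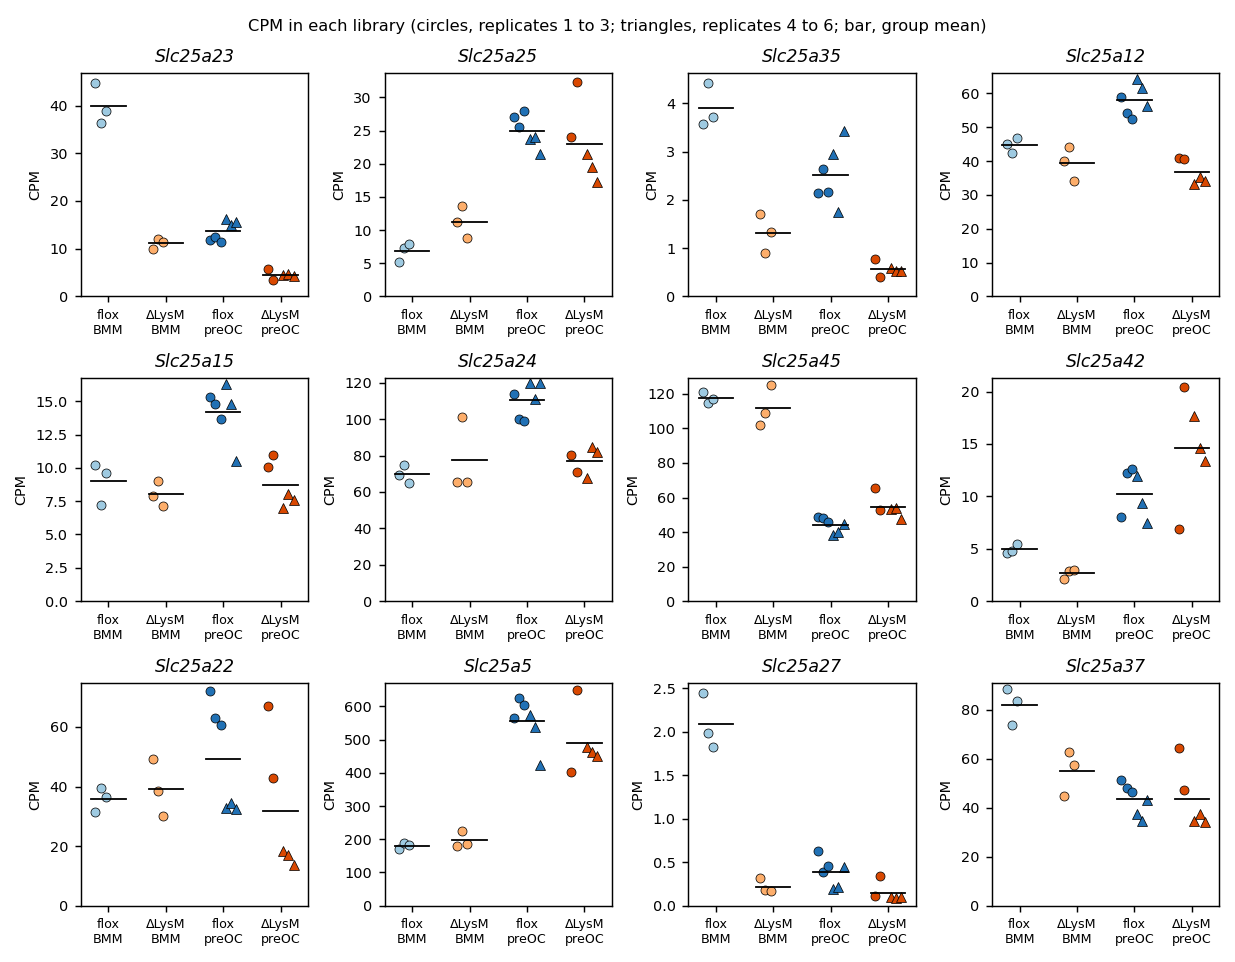
CPM of 12 members in each library of the 4 groups (circles, replicates 1 to 3, and triangles, replicates 4 to 6), with the group mean as a bar. Slc25a23, Slc25a35 and Slc25a12 separate the genotypes in preOCs without overlap, whereas Slc25a22 separates the library sets.

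The library sets bear on the number of members called in preOCs. Within replicates 4 to 6, 13 members (3 higher, 10 lower) and 33.8% of all genes passed, among them all 6 of the full comparison. Within replicates 1 to 3, with 3 against 2 libraries, none did and no gene of the table passed (edgeR), with 7 of 39 members and 17.8% of all genes at an unadjusted p under 0.05. With the library set as a term 14 members and 33.6% of all genes passed, and with the replicate number as a block 12 members and 32.8% of all genes did, the members being those of the full comparison and Slc25a20, Slc25a22, Slc25a33, Slc25a36, Slc25a38 and Slc25a42. Without Bap1ΔLysM preOC replicate 1, which retained Lyz2, 14 members and 24% of all genes passed. Slc25a36, for example, had a log2 fold change of 0.52 (adjusted p = 0.079) over all libraries, 0.47 (adjusted p = 0.0051) with the block and 0.61 (adjusted p = 0.037) without that library. A test of the interaction of genotype and library set called 0% of genes and no member (edgeR), and at an unadjusted p under 0.05 there were 3 of 37 members and 9.17% of all genes. DESeq2 called 98 genes and limma with quality weights 0, with no member in either.

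Markers of other cells and of the lineage itself moved with genotype in preOCs. Of 6 macrophage markers Mertk (log2 fold change 1.26) and Csf1r (0.41) were higher, of 9 osteoclast markers Dcstamp was lower (-0.69), and the dendritic marker Zbtb46 was higher (1.14). Of 8 tested neutrophil markers 6 were higher in Bap1ΔLysM preOCs, and their sum over 9 genes was 67 to 184 CPM in Bap1flox and 166 to 584 CPM in Bap1ΔLysM preOCs, with 424 to 584 CPM in the latter's replicates 4 to 6. The neutrophil gene Ly6g had 0 counts in 3 of 17 libraries. Both tested B and plasma cell markers, Ighm and Jchain, were higher, and the 6 genes of that list summed to 6.32 to 14.7 CPM in Bap1flox and 10.4 to 43.2 CPM in Bap1ΔLysM preOCs. None of the 5 stromal markers passed, and they summed to 174 to 2090 and 93.1 to 1325 CPM. In BMMs none of 8 neutrophil markers passed, with sums of 73.2 to 237 and 215 to 297 CPM, while Jchain was higher (log2 fold change 3.07). The part of these cells in the differences of Slc25a23, Slc25a35, Slc25a12, Slc25a15, Slc25a24 and Slc25a45 was not tested.

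Genes around the family were called in preOCs about as often as genes at large (15.8%), with 15.4% of the import genes and 14.3% of the other transporters. Of 13 import genes 1 was higher (Agk, 0.36) and 1 lower (Timm22, -0.33), and of 21 other transporters and channels 1 was higher (Ghitm, 0.30) and 2 lower. The serine carrier relative Sfxn2 had a log2 fold change of -1.06 (adjusted p = 0.0016), and Abcb10, which serves heme synthesis, of -0.38. None of the 13 mitochondrially encoded genes passed, though all had a log2 fold change above 0, with a median of 0.66.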

How the data were processed

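RNA-seq was measured in 17 libraries, 6 of BMMs and 11 of preOCs, grouped by their labels. The authors prepared poly-A RNA, aligned reads with STAR 2.5.1a to GRCm38 with the Ensembl annotation, and used featureCounts 1.4.6-p5 to count reads that aligned once and fell in 1 gene only, and these raw counts were deposited. Whether strand was used in counting is not given in the sources used here. The deposited CPM values are each count scaled to the library total, and the deposited RPKM values are CPM over gene length in kilobases, as was checked. Counts were tested and CPM and RPKM only printed.

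Symbols came from GENCODE M21 (GRCm38), in which 40254 of 41388 identifiers had one. The 33 of 47 members with the same start in both annotations include all those whose coordinates are given. Before testing, 355 ribosomal RNA genes were left out (0.0319% to 0.359% of counts), and a gene was kept if it passed 1 CPM in 4 or more libraries of a preOC fit, or in 2 or more of any other fit. The edgeR 4.0.16 quasi-likelihood test (R 4.3.3) with TMM factors was fitted to all genes, with Benjamini-Hochberg adjusted p under 0.05 counted as a call. Intervals are 95% intervals from the standard errors. The fits were checked on simulated counts, where the Bap1ΔLysM RANKL fit recovered none and the genotype by RANKL fit few of the changes made. At these depths counting error matters for members below about 1 CPM, and floors cover counting error only.

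Alternatives were DESeq2 1.42.0, limma 3.58.1 with quality weights (the test that the study's methods name), RLE and upper-quartile factors, other filters, a block on replicate number, the library set as a term or apart, and each library left out. In BMMs and in the RANKL comparisons, deviations of same-numbered libraries correlated over genes with r of 0.22 to 0.49, so the numbers pair them. In preOCs r was 0.34 to 0.68. There replicates 1 and 2 correlated best with the library of their own number, and replicates 4, 5 and 6 did not. Once library set means were removed, r was -0.14 to 0.4 and no library correlated best with its own number. Pairing by number is therefore not shown in preOCs. The main fits leave the numbers out, and the block on them is an alternative. Members, lists and the rule for named genes were chosen with earlier results of these data known. The rule gives full values for up to 8 members per direction in preOCs and 5 in the other fits with the largest fold changes, and always for the carriers of citrate, dicarboxylates, oxoglutarate, aspartate, glutamate, acylcarnitine, glutathione, branched-chain amino acids, adenine nucleotides and phosphate. The values of 1 member are not reported here, though counts over the family include it.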

Additional observations from a re-analysis of the deposited data

Results flagged for a closer look

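Among 74 tests of a member in the preOC libraries of 1 genotype, 6 gave a library that stood apart from the others of its group by a gap that is large against the group's range, and these came from 3 libraries. Chance gives such a gap in about 1 of 20 groups. Bap1ΔLysM preOC replicate 1, which retained Lyz2, was low for Slc25a4 (187 CPM, with the others at 286 to 323), Slc25a17 (32.9 CPM, others 38.8 to 40.1) and Slc25a51 (79 CPM, others 105 to 109). Bap1flox preOC replicate 1 was low for Slc25a51 as well (82.4 CPM, others 112 to 126) and high for Slc25a53 (3.48 CPM, others 2.02 to 2.1). Bap1flox preOC replicate 6 was low for Slc25a3 (468 CPM, others 567 to 623). None of these members passed the genotype test in the edgeR fit over all preOC libraries, but Slc25a17 did without Bap1ΔLysM preOC replicate 1 (log2 fold change 0.21, adjusted p = 0.041, edgeR), and over all libraries with DESeq2 (0.033), limma with quality weights (0.0024) and edgeR with a library set term (0.048). No cause was tested.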

How the results depend on the processing

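In preOCs 6 members were called, and the number was 10 with DESeq2, 17 with limma and quality weights, 12 with the replicate block, 14 with the library set as a term, 16 with all 17 libraries in a single fit, 0 in replicates 1 to 3 alone and 13 in replicates 4 to 6 alone. The share of all genes called moved with it, from 15.8% to 22.5%, 54.9%, 32.8%, 33.6%, 32.8%, 0% and 33.8%. Leaving out 1 library gave 4 to 14 (8.32% to 24% of all genes), with 14 only without Bap1ΔLysM preOC replicate 1. In BMMs 4 members (5.32% of all genes) were called, and 1 to 3 (0.0311% to 5.83%) with 1 library left out. The number in BMMs was 5 (16.2%) with the replicate block, 6 (15.9%) with DESeq2 and 5 (13.6%) with limma and quality weights. It was 7 (14.4%) with all 17 libraries in a single fit. In Bap1flox cells 28 members (64.6% of all genes) responded to RANKL, 26 (63.5%) with the replicate block and 24 to 28 (57% to 68.7%) with 1 library left out. In Bap1ΔLysM cells 9 did (19.6%), 9 (21.2%) with the replicate block, 0 to 14 (0.49% to 26.2%) with 1 library left out and 14 (32.6%) without both libraries numbered 1, an alternative chosen after seeing the data. The interaction of genotype and RANKL gave 0 members, or 0 to 1 (0% to 0.878% of all genes) with 1 library left out, and that of genotype and library set 0, or 0 to 3 (0% to 6.91%) without 1 library, the 3 coming without Bap1ΔLysM preOC replicate 2, where 1 arm is the single library that retained Lyz2 and is assumed to vary like the others. The cause of these moves was not tested beyond the smaller number of libraries where some were left out. No called member changed direction under any alternative, and 23 of 47 calls passed under every one in which the member was tested, 22 of 28 in the RANKL response of Bap1flox cells, 1 of 4 in BMMs, 0 of 6 in preOCs and 0 of 9 in the RANKL response of Bap1ΔLysM cells (Slc25a27 in the RANKL response of Bap1flox cells was not tested with more than 1 CPM in every library). With no filter on low counts Slc25a31 and Slc25a48 were also called in that response and Slc25a48 in that of Bap1ΔLysM cells, at 30 counts or fewer per library. The replicate block ended the calls of Slc25a14 and Slc25a44 in the RANKL response of Bap1flox cells and no other. The other scalings moved the median of all genes by at most 0.06 on the log2 scale. Counts were low for Slc25a27, Slc25a35 and the untested members, and the part of depth in this was not tested.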

Other observations

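Several members that did not pass the genotype test separated the preOC library sets in Bap1flox cells, as values without a test. Slc25a33 was at 5.4 ± 1.37 CPM (SD, n = 3) in replicates 1 to 3 and 1.77 ± 0.404 CPM in replicates 4 to 6, Slc25a28 at 43.6 ± 3.45 and 27.7 ± 0.849 CPM, and Slc25a1 at 76.9 ± 3.4 and 56.7 ± 2.74 CPM. The outer membrane protein Slc25a46, which acts in mitochondrial fusion and fission, was at 47.7 ± 0.922 and 70.5 ± 2.89 CPM. In Bap1ΔLysM preOCs the same 4 genes were at 3.93 and 1.2, 40.1 and 23.5, 73.9 and 53.9, and 49.2 and 76.4 CPM as means of the first and second set. What differed between the sets besides their naming is not given in the sources used here.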
